A study of Homo sapiens with 2 samples.

Results

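The target genes of the aryl hydrocarbon receptor were examined as a set of 6 genes: CYP1A1, CYP1A2, CYP1B1, ALDH3A1, TIPARP and AHRR. They were chosen by their known place downstream of that receptor, with earlier results of these data already known. The 6 genes were found by the position of their exons and hold 46 of the 239322 exons for which reads were counted. The RNA came from Huh-7, a human hepatocellular carcinoma cell line, and 2 mRNA sequencing libraries were compared. The control cells received 0.1% DMSO for 24 h, and the treated cells received 0.1 mM BS008, a derivative of the diuretic amiloride, for 24 h. Whether the BS008 cells also received DMSO is not stated in their label. The series was made to ask which exons are used differently after BS008, and the same libraries give the reads of each gene.

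Each condition is 1 library from 1 cell line, so no spread between cultures could be measured and no test between conditions was possible. Differences below compare those 2 libraries. Intervals are exact 95% intervals that cover counting error only. They treat reads as independent, and where reads are not independent molecules they are too narrow. The exon reads summed to 55476654 in the control and 53578432 in the BS008 library, so that 3 reads, the limit that a count of 0 allows, corresponded to 0.0541 and 0.0560 CPM (counts per 1000000 reads). All 6 hepatocyte genes examined to check the label (ALB, AFP, APOA1, APOB, SERPINA1 and TTR) had reads in both libraries, from 389 for TTR in the BS008 library to 478822 for APOB in the control. They were not level between the libraries, since APOB had 213405 reads with BS008 and ALB went from 274038 to 308359, and their part in the results was not tested. The leukocyte gene PTPRC had 0 reads in both, and the fibroblast collagen gene COL1A1 had 14 and 6.

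The aryl hydrocarbon receptor is a transcription factor that waits in the cytosol, held by the chaperone HSP90 and the co-chaperone PTGES3. When a planar aromatic ligand binds, the receptor moves to the nucleus, pairs with ARNT and binds short DNA elements whose core reads GCGTG. In hepatocytes its best known targets are the CYP1 enzymes, which oxidise aromatic compounds, together with TIPARP and AHRR, whose proteins restrain the receptor in turn.

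The bases before the start sites of CYP1A1, TIPARP and AHRR are shown because they hold the core letters and because these genes differed in how their reads compared between the libraries. The sequences are the 250 bases before a RefSeq start site on GRCh38.p14, printed 5′ to 3′ on the strand of the gene, with GCGTG (or CACGC, the same letters on the other strand) in capitals. The CYP1A1 stretch is on the minus strand at chr15:74725529-74725778, TIPARP on the plus strand at chr3:156674340-156674589 and AHRR on the plus strand at chr5:321464-321713.
CYP1A1: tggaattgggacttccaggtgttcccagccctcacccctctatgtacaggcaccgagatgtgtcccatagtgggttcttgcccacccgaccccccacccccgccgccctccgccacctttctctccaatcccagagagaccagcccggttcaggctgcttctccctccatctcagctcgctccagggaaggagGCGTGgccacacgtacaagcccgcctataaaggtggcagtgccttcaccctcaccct
TIPARP: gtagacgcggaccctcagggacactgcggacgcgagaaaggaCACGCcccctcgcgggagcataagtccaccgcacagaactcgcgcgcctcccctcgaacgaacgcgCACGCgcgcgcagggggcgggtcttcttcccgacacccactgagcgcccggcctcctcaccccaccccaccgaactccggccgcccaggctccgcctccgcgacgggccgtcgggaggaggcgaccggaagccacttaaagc
AHRR: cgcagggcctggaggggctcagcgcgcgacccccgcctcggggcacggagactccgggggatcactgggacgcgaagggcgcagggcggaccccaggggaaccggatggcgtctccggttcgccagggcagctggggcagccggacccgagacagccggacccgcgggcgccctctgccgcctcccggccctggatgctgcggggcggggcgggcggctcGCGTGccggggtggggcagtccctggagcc

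The core lay 57 bases before the start in CYP1A1, 208 and 142 bases before it in TIPARP, and 30 bases before it in AHRR. The longer letters TNGCGTG, which contain the core, were found in the AHRR stretch alone among the 7 start sites of 4 member genes in the RefSeq table. In all, 4 of those 7 sites held the core on either strand, among them a second AHRR site, while the CYP1A2 site and the other 2 TIPARP sites did not. Over all 35116 stretches of the same length, 32.2% held GCGTG and 4.52% held TNGCGTG, so the core letters are common by themselves. Of 13 start sites of 9 receptor complex and further target genes, 9 held the core and 2 the longer letters. Bases further upstream were not searched, and whether the receptor binds at any of these letters was not tested.

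The 6 genes differed in direction. TIPARP and AHRR were at least 2-fold higher in CPM in the BS008 library, although AHRR had only 25 reads over both libraries. CYP1A1 was close to its control level, ALDH3A1 and CYP1B1 were lower by less than 2-fold, and CYP1A2 was barely covered. No member was at least 2-fold lower. The share of all genes past 2-fold was not computed, since the exons were listed without gene names. In RNA from a whole culture, fewer cells that express a gene and less of its RNA per cell cannot be told apart.

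Among all 111629 exons with at least 40 reads over both libraries, 8.56% were at least 2-fold higher in the BS008 library and 9.41% at least 2-fold lower, with a median log2 ratio of -0.07. Of the 46 member exons, 20 reached that minimum, 6 were at least 2-fold higher and 0 were lower, with a median of -0.18. The 6 were all in TIPARP, and the 14 exons of the other genes held 0 in either direction, with a median of -0.34. The TIPARP exons stood between the 93.2 and the 97.9 percentile of all such exons.

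**Figure D1:**
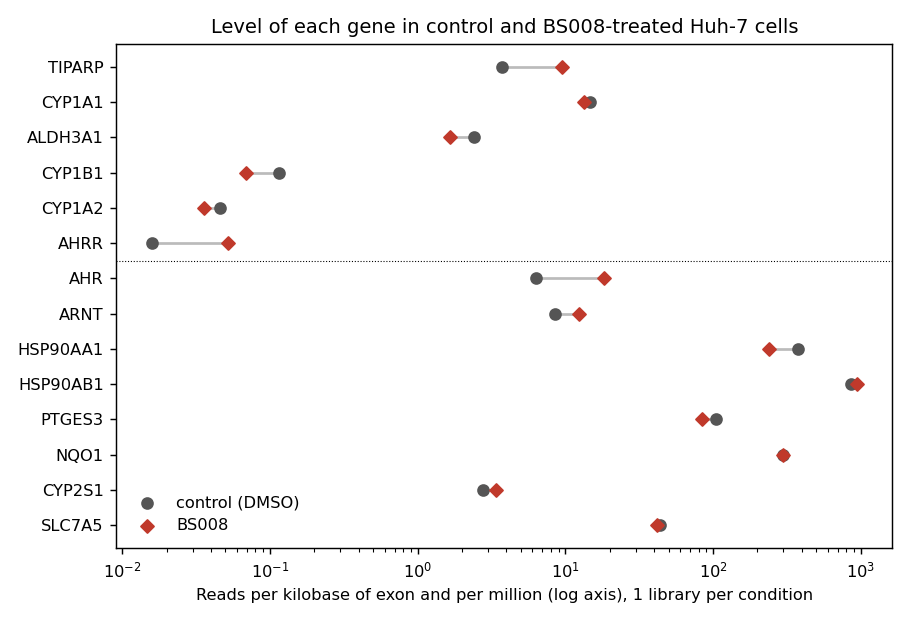
Level of each gene as RPKM, the CPM per kilobase of exon (log axis), with the control library as grey circles and the BS008 library as red diamonds, 1 library each. The 6 target genes stand above the dotted line and span 0.0158 to 14.7 in the control, and TIPARP moved from 3.74 to 9.50 while CYP1A1 went from 14.7 to 13.5.

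CYP1A1, which encodes the classical inducible enzyme of this pathway, had 2574 reads in the control and 2274 in the BS008 library. Its level per length was the highest of the 6 genes in both libraries, at 14.7 and 13.5 RPKM (CPM per kilobase of exon). The ratio of its CPM, BS008 over control, was 0.915 (0.864 to 0.968). With library sizes scaled by edgeR's TMM it was 0.947 (0.894 to 1.002), an interval that included 1.

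The 6 CYP1A1 exons, on the minus strand of chromosome 15 (hg19), had log2 ratios between -0.34 and 0.05. The longest, chr15:75011884-75013394 at the 3′ end of the gene, had 833 and 834 reads and was the one exon above 0. The other 5 had the length of an annotated CYP1A1 exon, and this one did not. The exon with the lowest ratio, chr15:75013932-75014410, had 322 and 246 reads. Its ratio of 0.791 (0.667 to 0.937) had an interval that did not overlap that of the longest exon, 0.941 to 1.14. These exons were the lowest and highest of the 6 by the same ratios, so the choice itself favours a gap. At the 5′ end, chr15:75017782-75017877 had 46 and 44 reads, a log2 ratio of -0.01.

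CYP1A2, the paralog that metabolises caffeine and is typical of mature hepatocytes, had 8 reads in the control and 6 in the BS008 library over 7 exons, 4 of which had none in either. Its CPM was 0.144 and 0.112, and the ratio of 0.792 had an interval from 0.222 to 2.55, so a difference of 2-fold in either direction was not detectable at this depth. CYP1A1 and CYP1A2 are near relatives that each have exons of 90 and 124 bases, and reads could have been placed on either.

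CYP1B1, the family member best known outside the liver, had 33 and 19 reads, almost all on its long 3′ exon at chr2:38294746-38298453 with 29 and 16. Of its 3 listed exons, 1 had the length of an annotated CYP1B1 exon, the 1044-base exon with 4 and 2 reads. The long 3′ exon did not. The level was 0.115 RPKM in the control and 0.0688 in the BS008 library. The ratio of 0.603 had an interval from 0.320 to 1.08 that included 1.

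ALDH3A1, an aldehyde dehydrogenase that is also a marker of detoxifying and tumour cells, had 539 reads in the control and 358 in the BS008 library. Its RPKM was 2.40 and 1.65, and its ratio of 0.688 (0.60 to 0.788) lay further from 1 than that of CYP1A1, with intervals that did not overlap.

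All 7 ALDH3A1 exons that had at least 40 reads over both libraries had log2 ratios below 0, from -0.81 to -0.08, with a median of -0.60. The lowest was chr17:19642821-19642987 with 64 and 35 reads, and the highest was chr17:19645317-19645525 with 35 and 32. The 5′-most exon, chr17:19651572-19651746, had 26 and 9 reads, under that minimum. Also under it, chr17:19642309-19642408 had 15 and 17 reads and was the exon of the gene that was higher in the BS008 library.

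TIPARP encodes a mono-ADP-ribosyltransferase that modifies the receptor and limits its activity. It had 891 reads in the control and 2187 in the BS008 library, or 16.1 and 40.8 CPM. The ratio was 2.54 (2.35 to 2.75), a log2 ratio of 1.35. Of the 6 genes it was the one whose interval lay wholly above 2.

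The 6 TIPARP exons with at least 40 reads, on the plus strand of chromosome 3 (hg19), were each at least 2-fold higher in the BS008 library. The first, chr3:156392379-156392585, had 18 and 68 reads and a log2 ratio of 1.94, the highest of the gene. The lowest was 1.13, found for the exons at chr3:156395446-156396403 with 343 and 728 reads and at chr3:156411809-156411977 with 87 and 185.

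Towards the 3′ end the TIPARP ratios lay between these. The exon at chr3:156413654-156413814 had 58 and 141 reads, and the last, chr3:156422473-156424529, had 322 and 862. The exon before the last, chr3:156421213-156421491, had 60 and 195 reads and a log2 ratio of 1.74. The remaining exon, chr3:156392715-156393180, had 3 and 8 reads. Of the 7 TIPARP exons, 4 had the length of an annotated TIPARP exon, the first and the last not among them. The exons share 1 gene and are not separate evidence of its level.

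**Figure D2:**
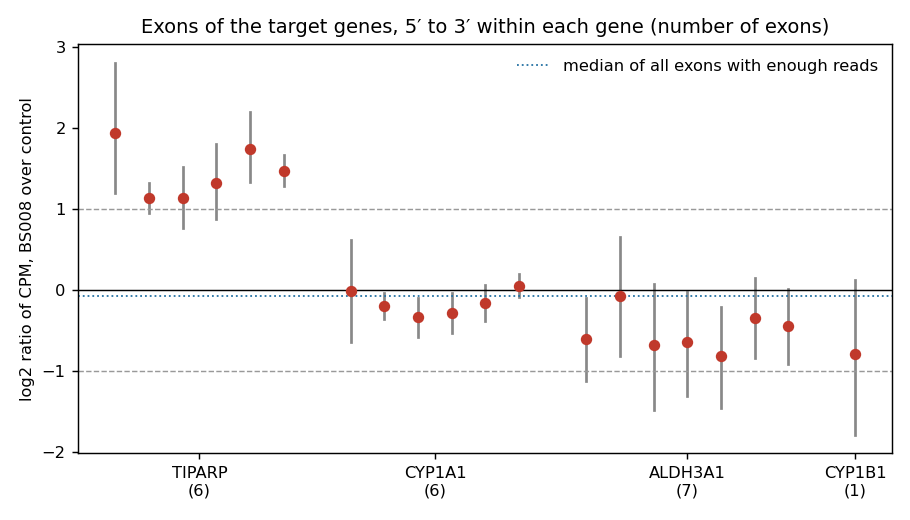
Log2 ratio of CPM, BS008 over control, for each of the 20 exons of the target genes with at least 40 reads, from 5′ to 3′ within each gene, with exact 95% intervals for counting error. Dashed lines mark a 2-fold difference and the dotted line the median of all exons at -0.07, and the 6 TIPARP exons lie between 1.13 and 1.94 while the exons of CYP1A1, ALDH3A1 and CYP1B1 lie between -0.81 and 0.05.

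The counting is not stated to use strand, and the first 2 TIPARP exons are overlapped by a minus-strand exon, chr3:156390964-156393502, which itself had 49 and 105 reads. Without those 2 exons TIPARP had 870 and 2111 reads, and its ratio was 2.51 (2.32 to 2.72).

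AHRR encodes a repressor that competes with the receptor for ARNT. It was at the limit of detection, with 6 reads in the control and 19 in the BS008 library over 12 exons on chromosome 5, or 0.0158 and 0.0519 RPKM. The ratio was 3.11 with an interval from 1.26 to 10.03. The last 2 exons of the gene together had 6 reads in the control and 11 in the BS008 library, but went in opposite directions. The one of 923 bases, an annotated AHRR exon length, had 4 and 2 reads. The last, of 4436 bases, had 2 and 9 reads, and its length was not that of an annotated AHRR exon. The other 10 exons had 0 reads in the control and 8 in the BS008 library, spread over 5 exons.

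The AHRR interval also covers exons of a neighbour. The first 4 exons of the interval, between positions 304292 and 315089 of chromosome 5, have the lengths of exons of PDCD6, a calcium-binding protein of cell death, and were left out of the sum above. Of the 12 exons kept, 10 had the length of an annotated AHRR exon. The 4 left out held 107, 171, 168 and 354 reads in the control and 91, 149, 143 and 266 in the BS008 library. With them included the sum was 806 and 668 reads and the log2 ratio was -0.22, so the direction given for AHRR depends on leaving them out. With 0.5 CPM added to each library the log2 ratio of AHRR without them was 0.49.

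**Figure D3:**
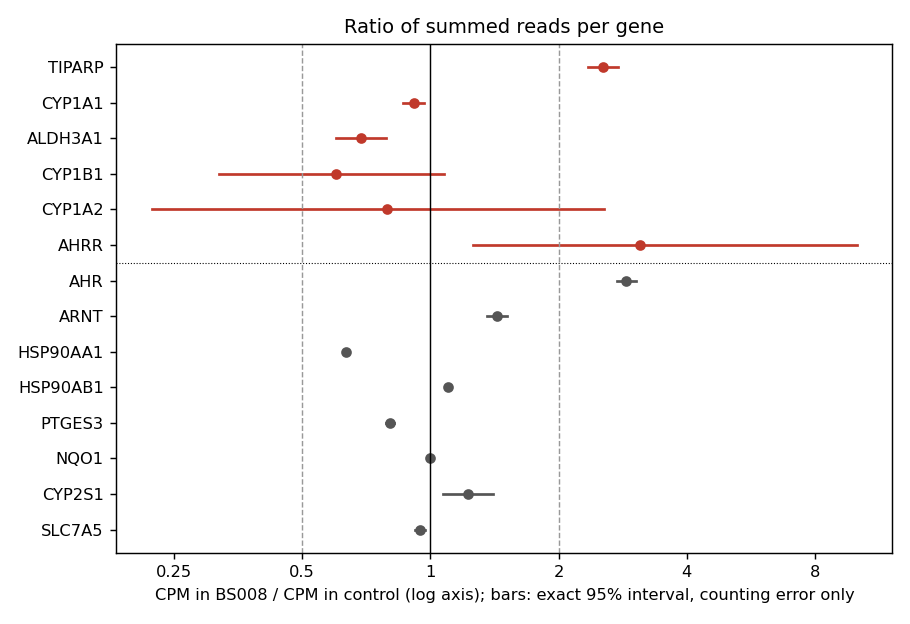
Ratio of CPM, BS008 over control (log axis), for each gene with its exact 95% interval, and dashed lines at 0.5 and 2. TIPARP at 2.54 and AHR at 2.89 lie above 2 with narrow intervals, and AHRR at 3.11 has an interval from 1.26 to 10.03.

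By level per length the order in the control was CYP1A1, TIPARP, ALDH3A1, CYP1B1, CYP1A2 and AHRR, and in the BS008 library AHRR stood above CYP1A2. That last change of order rests on 14 CYP1A2 reads and 25 AHRR reads over both libraries. The distance from CYP1A1 to TIPARP was wide in the control, 14.7 against 3.74 RPKM, and narrower in the BS008 library, 13.5 against 9.50.

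Exon use within a gene was compared as the percentage of the gene's reads on each exon, for the genes with at least 100 reads in each library. This left 19 exons of CYP1A1, TIPARP and ALDH3A1, and for 2 of them the Wilson 95% intervals of the libraries did not overlap. Of 87 exons of the receptor complex and further target genes described below, many of which had more reads, 27.6% had intervals apart, so 2 of 19 does not set the members off. The share over all genes was not computed, since the exons were listed without gene names. The 3′ exon of CYP1A1, chr15:75011884-75013394, held 32.4% (30.6 to 34.2) of the gene's reads in the control and 36.7% (34.7 to 38.7) in the BS008 library. Its length was not that of an annotated CYP1A1 exon, so this share may not stand for a single known exon.

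In TIPARP the exon at chr3:156395446-156396403 held 38.5% (35.4 to 41.7) in the control and 33.3% (31.3 to 35.3) in the BS008 library. The last TIPARP exon held 36.1% and 39.4%, with overlapping intervals. For ALDH3A1 the changes ran from -2.10 to 2.45 percentage points over 7 exons and none had intervals apart.

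**Figure D4:**
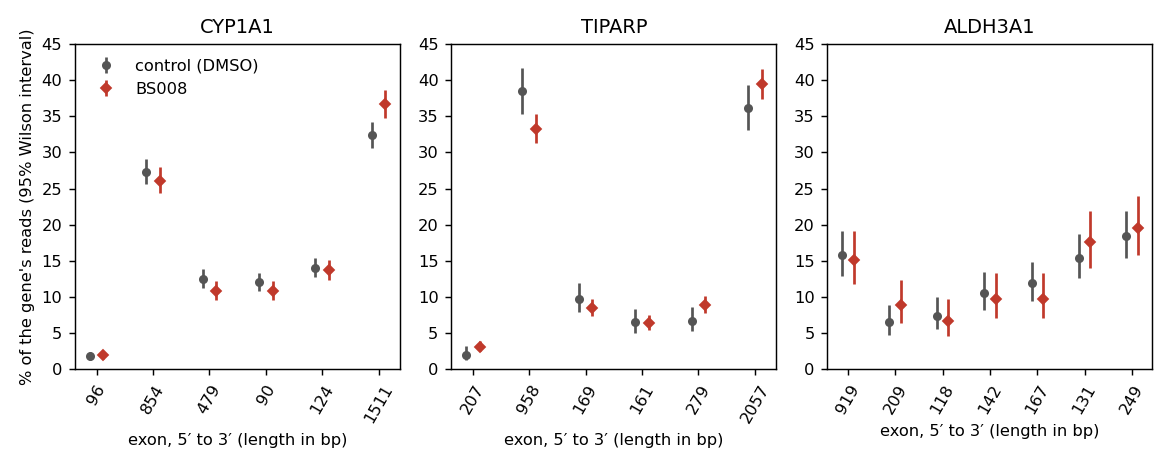
Percentage of a gene's reads on each exon, from 5′ to 3′ and labelled by exon length, in the control and the BS008 library, with Wilson 95% intervals for counting error. The intervals are apart for the 1511-base exon of CYP1A1 (32.4% and 36.7%) and the 958-base exon of TIPARP (38.5% and 33.3%).

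The receptor and its partners were measured beside the targets. AHR, the receptor itself, had 2210 reads in the control and 6161 in the BS008 library, 6.38 and 18.4 RPKM, a ratio of 2.89 (2.75 to 3.03). All 11 AHR exons were higher, with log2 ratios from 0.82 to 2.19, and 10 of them were at least 2-fold higher. It was the 1 gene of the 8 summed in the receptor complex and further target lists that passed 2-fold. Of the 8, 0 were at least 2-fold lower, and the share of all genes past 2-fold was not computed.

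ARNT, the nuclear partner, had 2346 and 3246 reads and a ratio of 1.43 (1.36 to 1.51). Of its 22 exons with at least 40 reads, 21 had log2 ratios above 0, and the median was 0.60.

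The chaperones went in different directions. HSP90AA1, the inducible HSP90, was lower in the BS008 library at a ratio of 0.634 (0.627 to 0.640), whereas HSP90AB1, the constitutive form, had a ratio of 1.10 (1.09 to 1.11). PTGES3 had a ratio of 0.804 (0.788 to 0.820). Of the 65 exons of these 5 receptor complex genes with at least 40 reads, 11 were at least 2-fold higher and 0 lower, with a median log2 ratio of 0.21, and 10 of the 11 were those of AHR.

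None of the further targets passed 2-fold by its summed reads. NQO1, a quinone reductase that the receptor shares with the oxidative stress factor NFE2L2, had 298 RPKM in both libraries and a ratio of 0.999 (0.986 to 1.01). CYP2S1, another inducible cytochrome, had 403 and 478 reads and a ratio of 1.23 (1.07 to 1.41), and SLC7A5, an amino acid transporter, 0.949 (0.923 to 0.975). Of the 6 CYP2S1 exons with at least 40 reads, 5 were higher in the BS008 library, with a median log2 ratio of 0.45 over the 6. The exception was its 3′ exon, chr19:41712185-41713443, with 217 and 195 reads, whose length was not that of an annotated exon. Of 22 exons of these 3 genes with at least 40 reads, 1 was at least 2-fold higher and 1 lower, beside 8.56% and 9.41% of all such exons. NFE2L2, also on the list, is not described, since under 50% of the exons listed in its interval had the length of an annotated exon. That limit was set for the lists and not for the target genes. CYP1B1, at 33.3%, would not have met it.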

How the data were processed

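Huh-7 mRNA was sequenced on an Illumina platform, 1 library for the control and 1 for BS008. The authors deposited, for each exon, its hg19 position and strand, the raw read counts and the RPKM values. The aligner and the counter are not given in the sources used here. RPKM recomputed from the counts matched the deposited RPKM within 4.7e-06.

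Counts of a gene's exons were summed and divided by the library total (CPM). Ratios had 0.5 reads added to each count, with exact conditional 95% intervals. Exons with at least 40 reads over both libraries were compared, and 2-fold was the limit for calling a difference. Genes were located by position, and exon lengths were compared with GENCODE 29. The named genes are all members and the genes of the receptor complex and further target lists, some of which are not reported here. Members and lists were chosen with earlier results of these data known. Promoters came from RefSeq. Scaling by edgeR 4.0.16 and DESeq2 1.42.0, 0.5 and 1 CPM added to each value, other read minimums, a 1.5-fold limit and all exons of the AHRR interval were the alternatives. Software was Python 3.11.15, scipy 1.17.1, pandas 2.3.3 and R 4.3.3.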

Additional observations from a re-analysis of the deposited data

Results flagged for a closer look

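The minus-strand exon that spans the first 2 TIPARP exons, chr3:156390964-156393502, belongs to none of the comparisons. It drew attention because it had more reads in the BS008 library than in the control, 105 against 49, a log2 ratio of 1.14 (ratio 2.21, 1.57 to 3.18). Without a known strand of the reads, its reads and those of the first TIPARP exons cannot be told apart.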

How the results depend on the processing

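No paired analysis was possible because each condition has 1 library, and none could be left out. Scaling by TMM, by DESeq2 size factors or without mitochondrial reads shifted every log2 ratio by 0.05, 0.03 and 0.02 and changed no count of calls, although NQO1 turned from just under 0 to 0.05, 0.03 and 0.02. The 2 member genes at least 2-fold higher became 1, TIPARP, with 0.5 or 1 CPM added, with all exons of the AHRR interval (AHRR log2 ratio -0.22) and, chosen after seeing the data, with genes of at least 100 reads. At a limit of 1.5-fold, 1 gene (CYP1B1) and 5 exons were lower, in place of 0. The 6 exons at least 2-fold higher became 3 with 1 CPM added and 14 with no read minimum. With no read minimum 3 were at least 2-fold lower and the median was -0.0132. With at least 10 reads in either library 2 exons were at least 2-fold lower. The cause of these changes was not tested, apart from the reads each setting adds or removes. TIPARP kept a log2 ratio between 1.29 and 1.39 under every setting in which it was computed. At this depth CYP1A2, CYP1B1 and AHRR, with 14, 52 and 25 reads over both libraries, limit what can be said of them.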

Other observations

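AHR aside, the receptor complex and further target genes summed above had not passed 2-fold as a whole. Of their exons with at least 40 reads over both libraries, 3 did. The receptor complex list holds 65 such exons, 11 of them in AHR, and the further target list 22. Of all exons with that many reads, 8.56% passed the limit upward and 9.41% downward, so 3 does not set these genes off. The 5′-most exon of NQO1, chr16:69760336-69760533, had 2190 reads in the control and 1024 in the BS008 library, a log2 ratio of -1.05. Its length was not that of an annotated NQO1 exon. The other 5 NQO1 exons lay between -0.31 and 0.14. The exon of ARNT at chr1:150801569-150801703 had 43 and 90 reads, and the exon of CYP2S1 at chr19:41709355-41709542 had 27 and 65. These exons were singled out after their values were seen, and without replicates none of the differences was tested.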
